A study of Mus musculus with 20 samples.

Results

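Transcripts of 9 genes that encode complement components and receptors were followed in BV-2 microglia, a microglial cell line derived from mouse brain. The members are the C1q subunits C1qa, C1qb and C1qc, the central component C3, the alternative pathway factors Cfb (complement factor B) and Cfp (properdin), and the receptors C3ar1, C5ar1 and Itgam. They were chosen by symbol, each matched to 1 Ensembl identifier, and are 9 of 55487 identifiers in the count table. All 9 were among the 12799 genes abundant enough to be tested. RNA sequencing covered 20 cultures in 4 groups of 5, namely wild-type young and aged BV-2 microglia, each left untreated or exposed to lipopolysaccharide (LPS), a component of the bacterial outer membrane, at 100 ng/ml for 6 hours. Young means cells at low passage, and aged means cells of the same line after long-term cultivation. Frozen aliquots of the aged cells were thawed together with the controls. The labels number 5 batches, with 1 culture of every group in each. The sources do not say whether the 5 aged cultures came from separate long-term cultivations, so the p-values measure the spread between these cultures of 1 line. Since the young and the untreated groups each serve in several comparisons, the comparisons share samples and are not independent of each other.

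Complement is a cascade of plasma proteins that tags and destroys targets. C1q, assembled from the products of C1qa, C1qb and C1qc, recognises targets and starts the classical pathway, and in the brain it is known for tagging synapses and apoptotic cells. All pathways meet in the cleavage of C3. Factor B provides the protease of the alternative pathway convertase, and properdin stabilises that convertase. The small fragments C3a and C5a signal through C3ar1 and C5ar1, whereas the fragment iC3b on an opsonised target is bound by complement receptor 3, a dimer of Itgam (CD11b) and Itgb2 (CD18). Microglia are the main source of C1q in the brain.

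Libraries held 11371508 to 16829292 counts. Levels are given as counts per 1000000 counts of the TMM-scaled library total (CPM), and 3 counts, taken as the floor of detection, corresponded to 0.178 to 0.264 CPM before that scaling. All 12 microglia and macrophage markers examined rose above the floor in at least 1 library, with Csf1r between 562 and 998 CPM, although 2 genes that define microglia in tissue, Cx3cr1 and P2ry12, did not exceed 1.73 and 1.87 CPM. Of 21 markers of neurons, astrocytes, oligodendrocytes, endothelium, fibroblasts and lymphocytes, 5 exceeded the floor in any library, and none exceeded 1.45 CPM. The summed level of 4 genes known to be induced by LPS, Tnf, Il1b, Il6 and Nos2, was 13.0 to 34.4 CPM in untreated and 509 to 2240.0 CPM in LPS-treated libraries. In these bulk libraries, less transcript in each cell and fewer cells with the transcript cannot be told apart.

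Among aged as compared to young untreated microglia, 4 of the 9 members were lower and none was higher, where 11.5% of all genes tested were called in either direction, 3.71% higher and 7.81% lower. The members had a median log2 fold change of -0.80 and all genes tested one of -0.01. The lower genes were C3 and the 3 C1q subunits. After LPS, 6 members were lower in aged than in young cells and none was higher, against 29% of all genes called, 14% higher and 15% lower. In both ages LPS raised C3, Cfb, C3ar1 and C5ar1, lowered C1qa and C1qc, and left C1qb, Cfp and Itgam short of the threshold. That is 6 of 9 members called in either age. Of all genes tested, 64.6% were called in young cells (31.2% higher, 33.5% lower) and 54.4% in aged cells (27.5% higher, 26.9% lower). Libraries of the 2 groups did not overlap at all for 4 members with age in untreated and 4 in LPS-treated cells (10.4% and 14.8% of all genes tested), and for 6 members with LPS in young and 4 in aged cells (49.1% and 40.1%). The 4 with age in untreated cells include Cfb, for which all aged and most young untreated libraries were at or below the floor. A gene is called here when edgeR's quasi-likelihood test gave it an adjusted p below 0.05, adjusted over all genes tested.

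General markers of microglia and macrophages also differed with age. Of the 12 examined, which include Itgam, 3 were lower in aged than in young untreated cells (Aif1, Csf1r and Spi1) and none was higher. After LPS 5 were lower (Aif1, Csf1r, Ptprc, Spi1 and Tyrobp) and 1 was higher (Tmem119). Of all genes tested, 7.81% were called lower and 3.71% higher with age untreated, and 15% lower and 14% higher under LPS. The median log2 fold change of the 12 markers with age was -0.32 untreated and -0.36 under LPS. Csf1r, the receptor on which microglia depend for survival, had a log2 fold change of -0.44 (SE 0.11, adjusted p = 0.0132) untreated and of -0.38 (SE 0.11, adjusted p = 0.0123) under LPS, and Aif1, which encodes IBA1, one of -1.15 (SE 0.18, adjusted p = 2.21e-04) and of -1.27 (SE 0.19, adjusted p = 2.39e-05). The summed level of the 12 markers was 2939 to 4217 CPM in young and 2546 to 3664 CPM in aged untreated libraries, and 3313 to 4657 and 2894 to 4111 CPM after LPS, with overlap between the ages in both. The part of these markers in the age differences of the complement genes was not tested.

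**Figure D1:**
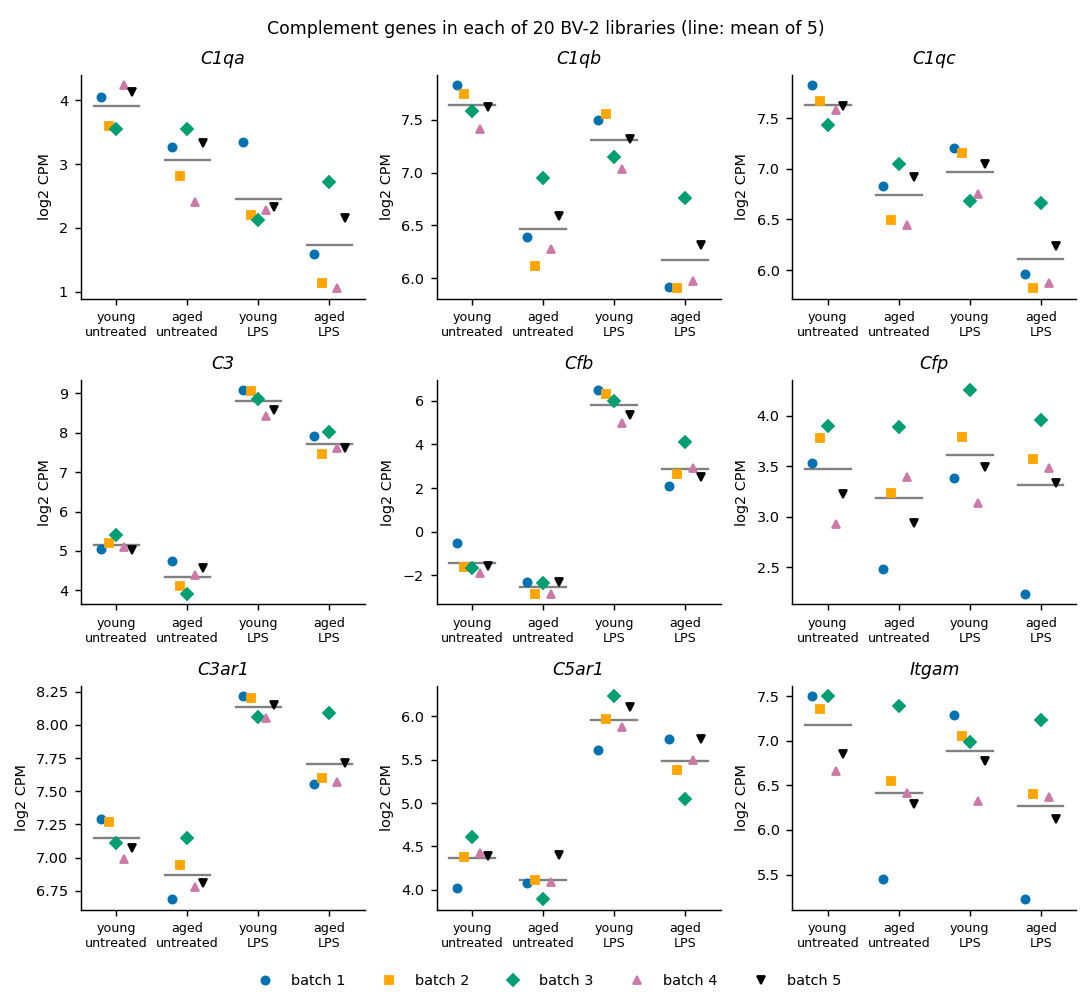
Level of each complement gene as log2 CPM in all 20 BV-2 libraries, with 1 marker per library, shaped and coloured by batch, and a line at the mean of the 5 libraries of a group. Every LPS-treated library lay above every untreated one for C3, Cfb, C3ar1 and C5ar1. C1qb and C1qc separated aged from young cells within each treatment. The green diamond of batch 3 was highest among aged LPS-treated cultures in 8 of the 9 panels. The share of all genes tested for which that library was highest was not determined.

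The 3 C1q genes stand side by side on the minus strand of chromosome 4 (build GRCm38), with C1qb at chr4:136880129-136886187, C1qc at chr4:136889804-136893065 and C1qa at chr4:136895917-136898803. Promoters of C1qb and C1qc are shown because the genes lie together and all 3 were lower in aged untreated cells, while they differed in their answer to LPS. RefSeq windows on GRCm38.p6 from 250 bases before to 50 bases after the annotated start were found for 7 of the 9 members. C1qb and C1qc were among them, but C1qa and Cfb were not. The C1qb window is chr4:136886151-136886450 and the C1qc window is chr4:136892865-136893164, both printed 5′ to 3′ on the minus strand. Capitals mark matches to motifs of myeloid and inflammatory transcription factors. These are GAGGAA (PU.1) or its reverse complement TTCCTC in both genes, and the longer NF-kappaB match in C1qc:
C1qb: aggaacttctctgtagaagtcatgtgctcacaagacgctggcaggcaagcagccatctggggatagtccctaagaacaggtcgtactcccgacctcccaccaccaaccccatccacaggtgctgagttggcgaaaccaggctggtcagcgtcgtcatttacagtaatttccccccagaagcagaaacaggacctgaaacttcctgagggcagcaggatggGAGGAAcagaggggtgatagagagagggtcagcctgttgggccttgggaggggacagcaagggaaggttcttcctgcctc
C1qc: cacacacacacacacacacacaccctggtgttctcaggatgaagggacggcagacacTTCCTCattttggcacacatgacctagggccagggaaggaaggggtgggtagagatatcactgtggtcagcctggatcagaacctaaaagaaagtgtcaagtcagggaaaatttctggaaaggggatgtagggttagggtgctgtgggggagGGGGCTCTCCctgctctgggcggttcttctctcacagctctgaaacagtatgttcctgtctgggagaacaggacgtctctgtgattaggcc
Counted from the RefSeq start, the GAGGAA match begins at base -30 in C1qb and at base -193 in C1qc, and the NF-kappaB match of C1qc begins at base -41. For C1qc the RefSeq start lies inside the gene span given above, which begins further upstream. The NF-kappaB match therefore falls within that span, and the positions hold for the RefSeq start alone. The letters GAGGAA were present on either strand in 28.3% of 32851 promoter windows of this length, an NF-kappaB match in 4.51%. Neither window held the core of the interferon response element, 2 copies of GAAA with any 2 bases between them, which was present in 3.44% of windows. A match is a description of these letters, and binding was not measured.

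C1qb encodes the B chain of C1q. Its level in young untreated cultures was 228, 214, 192, 171 and 196 CPM in batches 1 to 5. Aged untreated cultures held 83.8, 69.3, 123, 77.2 and 96.2 CPM. Every aged culture lay below every young one, with log2 differences from -1.62 to -0.64 within batches. The log2 fold change was -1.15 (SE 0.16, adjusted p = 5.29e-05), so that C1qb was 2.22-fold lower in aged cells. Under LPS the levels were 181, 188, 142, 131 and 159 CPM in young and 60.1, 59.6, 108, 62.5 and 79.4 CPM in aged cultures. Again the groups did not overlap, and the log2 fold change with age was -1.11 (SE 0.16, adjusted p = 1.70e-05). The change with LPS itself was small: C1qb was lower after LPS in 5 of 5 batches of either age, with a log2 fold change of -0.32 (SE 0.15, adjusted p = 0.0728) in young and -0.28 (SE 0.16, adjusted p = 0.142) in aged cells. In young cells the fit with the batch as a block gave an adjusted p of 0.0465, past the threshold, and 5 of 13 alternative settings passed it (0.00257 to 0.190). In aged cells 2 of 13 did (0.0162 to 0.270), the fit without batch 3 (0.0343) and that with library size alone as the scaling.

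C1qc, the C chain, showed the same order with age and a clearer drop with LPS. Young untreated cultures held 227, 204, 172, 191 and 197 CPM and aged untreated cultures 114, 90.0, 132, 86.7 and 121 CPM, without overlap. This is a log2 fold change of -0.87 (SE 0.14, adjusted p = 4.05e-04), and from -1.18 to -0.38 within batches. In LPS-treated cultures C1qc stood at 147, 143, 103, 108 and 133 CPM in young and 62.0, 56.3, 101, 58.5 and 75.6 CPM in aged cells. The highest aged culture, that of batch 3, fell just short of the lowest young one, which was also from batch 3. The log2 fold change with age was -0.84 (SE 0.15, adjusted p = 1.59e-04). With LPS, C1qc fell by 0.65 on the log2 scale in young cells (SE 0.14, adjusted p = 3.97e-04), with no overlap between the groups. In aged cells it fell by 0.62 (SE 0.15, adjusted p = 0.00107), and there the LPS-treated culture of batch 3 at 101 CPM overlapped the untreated range.

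C1qa, the A chain, was far less abundant than its neighbours. Young untreated cultures held 16.3, 12.0, 11.5, 18.8 and 17.3 CPM from 187 to 285 counts per library, and aged untreated cultures 9.44, 6.86, 11.6, 5.16 and 9.92 CPM. Aged cells were lower in 4 of 5 batches, and in batch 3 both ages stood at about the same level. The log2 fold change of -0.82 (SE 0.25, adjusted p = 0.0385) passed the threshold narrowly. It did not pass when batch 1, 2, 4 or 5 was left out, with adjusted p-values of 0.0565, 0.126, 0.190 and 0.115, nor by DESeq2's Wald test (0.0775), and it passed in 8 of 13 alternative settings (0.00678 to 0.190). After LPS, C1qa fell to 9.98, 4.48, 4.21, 4.70 and 4.86 CPM in young cells, where the culture of batch 1 at 9.98 CPM stood apart from the other four. In aged cells it fell to 2.88, 2.06, 6.42, 1.94 and 4.34 CPM, from 25 to 93 counts per library. With LPS, C1qa fell by 1.45 on the log2 scale in young cells (SE 0.27, adjusted p = 6.96e-05) and fell by 1.26 in aged cells (SE 0.30, adjusted p = 9.53e-04), in 5 of 5 batches of either age. Between aged and young LPS-treated cells the log2 difference was -0.63 (SE 0.32, adjusted p = 0.148), with batch 3 in the opposite direction at 0.59. Without batch 3 it was -1.06, at an adjusted p of 0.0170, and 2 of 13 alternatives passed (0.0170 to 0.603).

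The proportions of the 3 subunit transcripts were compared as ratios of counts within a library, which do not depend on how libraries are scaled. C1qb over C1qa had a geometric mean of 13.4 in young and 10.7 in aged untreated cells, and LPS raised it to 29.8 and 22.7. The LPS-treated ratios did not overlap the untreated ones in either age. Each rise had an exact two-sided permutation p of 0.00794, the smallest that 5 against 5 cultures can give, and 0.0127 after Benjamini-Hochberg adjustment over the 8 ratio comparisons. In young cells the margin was narrow, since the LPS-treated culture of batch 1 had a ratio of 18.1 and the highest untreated culture one of 17.9. Aged and young cells did not differ in this ratio beyond their spread (adjusted exact permutation p = 0.190 in either treatment). Without batch 4, however, the untreated log2 difference was -0.59 and passed the threshold (adjusted exact permutation p = 0.0327). C1qc over C1qb moved less. Its geometric mean was 0.991 in young and 1.22 in aged untreated cells, and 0.790 and 0.959 after LPS. LPS lowered this ratio in both ages without overlap (adjusted exact permutation p = 0.0127 each). Aged cells held more C1qc per C1qb than young cells under LPS, also without overlap (adjusted exact permutation p = 0.0127). The same difference in untreated cells, with 1 overlap between the groups, had an adjusted exact permutation p of 0.0212, which became 0.0762 when batch 1, 2 or 5 was left out.

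**Figure D2:**
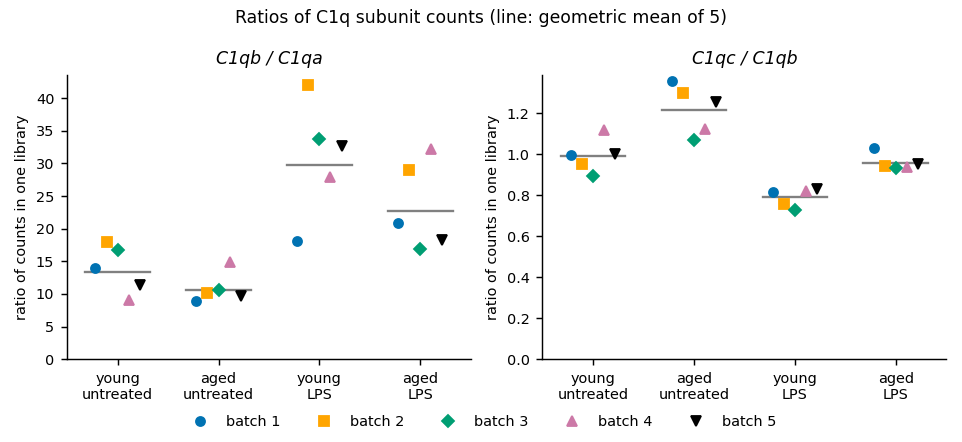
Ratio of C1qb to C1qa counts (left) and of C1qc to C1qb counts (right) in each of the 20 libraries, on linear axes from 0, with markers by batch and a line at the geometric mean of 5. The left ratio rose from 13.4 to 29.8 in young and from 10.7 to 22.7 in aged cells with LPS, whereas the right ratio fell in both ages and was higher in aged cells.

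C3, the component on which all complement pathways converge, lies at chr17:57203970-57228136 on the minus strand. Its promoter window, chr17:57228087-57228386 on the minus strand of GRCm38.p6, is shown because C3 had the largest rise with LPS among the members with a window. Capitals mark the letters TTGCNNAA of a C/EBP motif, which begin at base -45 and were found on either strand in 10.8% of promoter windows:
C3: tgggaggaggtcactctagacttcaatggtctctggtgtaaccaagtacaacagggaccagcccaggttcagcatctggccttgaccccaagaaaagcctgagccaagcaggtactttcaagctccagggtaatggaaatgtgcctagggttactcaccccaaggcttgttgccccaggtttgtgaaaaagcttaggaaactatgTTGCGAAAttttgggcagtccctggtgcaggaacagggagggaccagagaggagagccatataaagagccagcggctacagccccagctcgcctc
This window held no match to the NF-kappaB, interferon response or GAGGAA motifs.

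C3 was low but readily counted in untreated cells. The 5 young cultures held 33.2, 36.9, 42.4, 34.0 and 32.2 CPM and the aged ones 26.5, 17.1, 14.9, 20.9 and 23.5 CPM. No aged culture reached the lowest young one, and the log2 fold change was -0.80 (SE 0.15, adjusted p = 0.00161). With LPS, C3 reached 540.0, 533, 460.1, 345 and 382 CPM in young cells. This 12.6-fold rise had a log2 fold change of 3.66 (SE 0.15, adjusted p = 2.78e-15) and lay between 3.34 and 4.02 within batches. Aged cells reached 240.1, 176, 258, 197 and 195 CPM, a 10.4-fold rise with a log2 fold change of 3.37 (SE 0.15, adjusted p = 2.77e-14). The 4 groups were thus ordered young LPS, aged LPS, young untreated and aged untreated, and no group overlapped the next. Under LPS aged cells held 2.12-fold less C3 than young cells, with a log2 fold change of -1.08 (SE 0.14, adjusted p = 3.98e-06) and lower levels in 5 of 5 batches.

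Cfb, at chr17:34856374-34862518 on the minus strand, was close to absent without LPS. Young untreated libraries held 8, 3, 3, 2 and 3 counts and aged ones 1, 0, 1, 0 and 1, so all aged and 4 of 5 young libraries were at or below the floor. No fold is given for this difference, because without the young culture of batch 1 the young mean of 0.176 CPM lay below the floor of the aged libraries, 0.184 CPM. Its difference missed the threshold in edgeR (adjusted p = 0.394) and passed it by DESeq2's Wald test (0.0367), with 0.0367 to 0.566 over its alternatives. After LPS, young cultures reached 89.3, 80.1, 62.8, 31.6 and 40.4 CPM, a mean of 60.8 ± 24.8 (SD, n = 5). The log2 fold change against the young untreated cultures, which held 19 counts together, was 7.89 (SE 0.48, adjusted p = 2.19e-12). Aged cultures reached 4.14, 6.10, 17.4, 7.43 and 5.50 CPM. That is at least 43.5-fold above the floor of the aged untreated libraries, and the change was called (adjusted p = 3.55e-08). Even the highest aged culture, again that of batch 3, stayed below the lowest young culture at 31.6 CPM. Cfb had the largest age difference of the 9 members under LPS, 7.41-fold lower in aged cells, with a log2 fold change of -2.89 (SE 0.30, adjusted p = 4.74e-07) and a range from -4.38 to -1.85 within batches. A second annotated gene, Gm20547, lies on the same strand and shares 79.5% of the exon bases of Cfb. In the 10 libraries with at least 50 counts for Cfb its counts were 86.8% to 100% of those of Cfb, so most reads were counted for both genes and the pair cannot be told apart.

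Cfp, on chromosome X at chrX:20925454-20931555, did not pass the threshold in any comparison. Its levels were 11.4, 13.6, 14.8, 7.45 and 9.19 CPM in young untreated, 5.43, 9.29, 14.6, 10.4 and 7.52 CPM in aged untreated, 10.3, 13.7, 18.9, 8.65 and 11.1 CPM in young LPS-treated and 4.56, 11.7, 15.4, 11.0 and 9.91 CPM in aged LPS-treated cultures. All 4 groups overlapped, and batch 3 was highest in each of them. The log2 fold change with LPS was 0.15 (95% interval -0.41 to 0.72) in young and 0.14 (-0.43 to 0.72) in aged cells. With age it was -0.25 (-0.81 to 0.31) without and -0.26 (-0.83 to 0.31) with LPS. All 4 intervals include 0 and those with age reach beyond -0.80, so a moderate difference was not detectable with this spread.

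**Figure D3:**
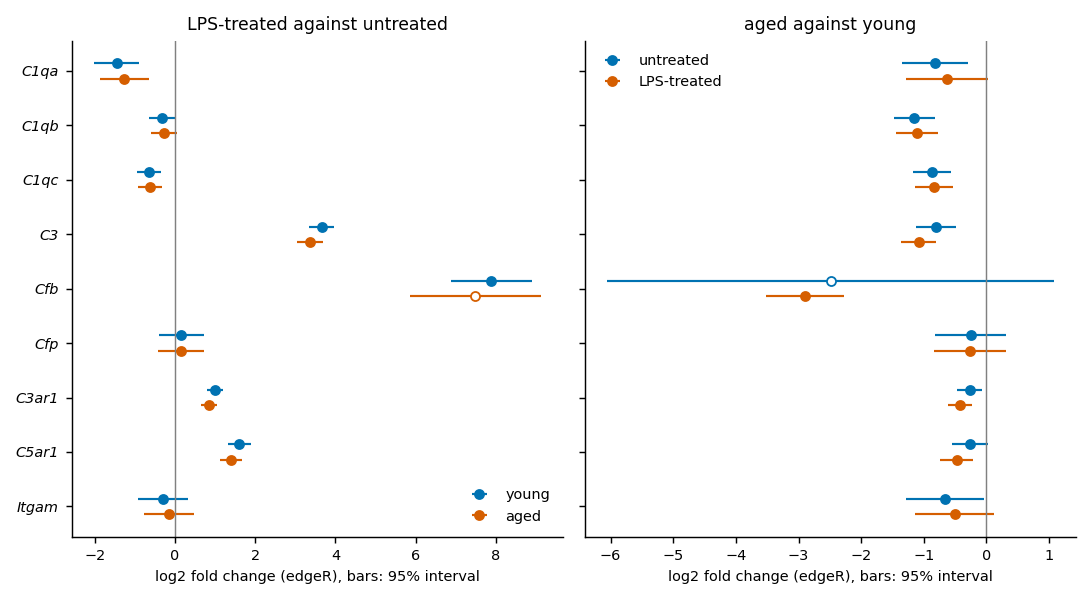
Log2 fold changes of the 9 complement genes by edgeR with 95% intervals, LPS-treated against untreated (left, by age) and aged against young (right, by treatment), on separate linear axes. Open circles mark comparisons of Cfb in which the aged untreated group was at or below the detection floor, where the fitted value is not a bound. C3, Cfb, C3ar1 and C5ar1 lay to the right of 0 with LPS in both ages, and all 9 genes lay to the left of 0 with age in both treatments.

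C3ar1, at chr6:122847138-122856161, encodes the receptor for C3a. Untreated cultures held 156, 154, 138, 127 and 134 CPM when young and 103, 123, 142, 109 and 112 CPM when aged. The groups overlapped through batch 3, in which the aged culture was marginally higher, and the log2 fold change was -0.27 (SE 0.09, adjusted p = 0.0703). With the batch as a block, however, the adjusted p was 0.0331, and without batch 3 it was 0.00433, within a range of 0.00433 to 0.292 over 13 alternatives. LPS raised the level to 298, 295, 266, 266 and 285 CPM in young cells, a 1.99-fold rise (log2 fold change 0.99 (SE 0.09, adjusted p = 4.37e-09)). In aged cells it reached 188, 193, 272, 189.5 and 210.2 CPM, a 1.79-fold rise (log2 fold change 0.84 (SE 0.09, adjusted p = 1.12e-07)). Neither rise showed overlap, and within batches they lay between 0.93 and 1.08 in young and between 0.65 and 0.94 in aged cells. Under LPS aged cells were lower in 4 of 5 batches (log2 fold change -0.42 (SE 0.09, adjusted p = 0.00162)), and the aged culture of batch 3 lay within the young range.

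C5ar1, at chr7:16246743-16259540, encodes the C5a receptor that couples to G proteins. Its levels in untreated cells, 16.1, 20.6, 24.3, 21.3 and 20.8 CPM when young and 16.7, 17.2, 14.7, 16.9 and 20.9 CPM when aged, overlapped, with a log2 fold change of -0.26 (SE 0.14, adjusted p = 0.246). LPS raised it 3.05-fold to 48.8, 62.4, 75.3, 58.4 and 69.0 CPM in young cells and 2.63-fold to 53.3, 41.6, 33.0, 45.1 and 53.3 CPM in aged cells. The log2 fold changes were 1.61 (SE 0.13, adjusted p = 3.65e-10) and 1.39 (SE 0.13, adjusted p = 9.20e-09), and LPS-treated and untreated cultures did not overlap in either age. Under LPS aged cells held less C5ar1 (log2 fold change -0.47 (SE 0.13, adjusted p = 0.00681)), although the groups overlapped and batch 1 went the other way. Without batch 2 the adjusted p was 0.0599, the highest of its 13 alternatives. Unlike for the other 8 members, the aged LPS-treated culture of batch 3 was the lowest of its group for C5ar1.

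Itgam, at chr7:128062640-128118491 on the plus strand, encodes the alpha chain of complement receptor 3 and is widely used as a marker of microglia. Its levels differed widely between the aged cultures. Young untreated cultures held 181, 163, 181, 101 and 115 CPM and aged untreated cultures 43.7, 93.5, 168, 85.0 and 77.9 CPM. Batch 1 gave the lowest and batch 3 the highest aged value. With LPS the levels were 156, 132, 127, 80.0 and 109 CPM in young and 37.2, 84.4, 149.8, 82.5 and 69.4 CPM in aged cultures. The aged cultures thus kept their order, while batches 2 and 3 changed places in young cells. None of the 4 differences passed the threshold in the fit of all libraries. With age the log2 fold change was -0.66 (SE 0.30, adjusted p = 0.166) without and -0.51 (SE 0.30, adjusted p = 0.233) with LPS, and leaving out batch 3 gave adjusted p-values of 0.0350 and 0.0290, the only 1 of 13 alternatives that passed in either case (highest 0.412 and 0.613). Within batches the untreated difference was negative in 5 of 5, from -2.05 in batch 1 to -0.11 in batch 3. Under LPS it was negative in 3 of 5, with 0.04 in batch 4 and 0.24 in batch 3. With LPS the log2 fold change was -0.30 (95% interval -0.92 to 0.32) in young and -0.15 (-0.78 to 0.48) in aged cells, and it was negative in 5 of 5 batches of either age. Gm49368, a gene on the same strand that shares 68.7% of the exon bases of Itgam, held 72.3% to 77.9% of its counts in all 20 libraries, so that reads of the pair are not separable here.

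Single cultures were the highest or lowest of their group for several members at once. Batch 3 held the highest aged LPS-treated culture for 8 of 9 members and the highest aged untreated culture for 6 of 9. In young cells batch 1 was highest for 5 members untreated and for 6 with LPS, and batch 4 was lowest for 5 and 6. The 2 ages of a batch mostly did not share these places, although for Cfp batch 3 was highest in all 4 groups. Young cultures of batch 3 were highest for 3 members untreated and for 2 with LPS, and aged cultures of batch 1 were lowest for 3 and 4. The share of all genes tested with these places was not determined, so the counts are not shown to be particular to complement genes. The genes Itgax (CD11c, the alpha chain of complement receptor 4) and Clu (clusterin, an inhibitor of the terminal complex) had, like Itgam, their lowest aged culture in batch 1 and their highest in batch 3. Itgax stood at 19.9, 57.5, 100.0, 53.7 and 32.8 CPM and Clu at 45.7, 48.3, 79.3, 51.8 and 49.7 CPM in aged untreated cultures. Since batches hold 1 culture of each group, the batch does not coincide with age or LPS. What distinguished the aged cultures of batch 3 was not tested, nor whether whole batches or single cultures stood apart.

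**Figure D4:**
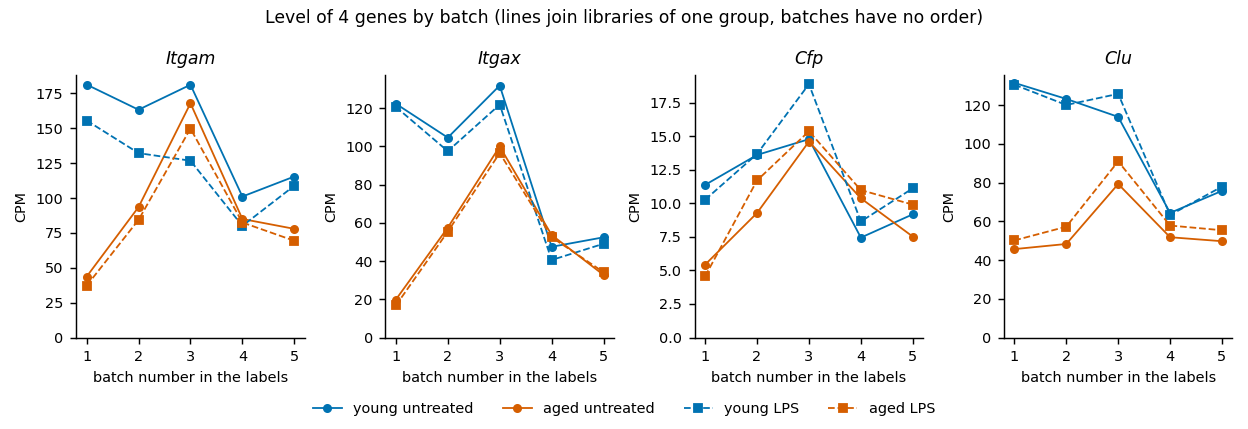
Level in CPM, on linear axes from 0, of Itgam, Itgax, Cfp and Clu in each batch, with 1 point per library and lines joining the 5 libraries of a group for the eye alone, since batches have no order. The aged cultures of batch 3 were the highest of their group for all 4 genes, while for Itgam, Itgax and Clu the young cultures of batch 4 or batch 5 were among the lowest.

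Whether aging changed the response to LPS was tested as the difference between the log2 responses of aged and young cells. Cfb, whose aged untreated libraries were at or below the floor, could not be judged by this test. None of the other 8 members passed, none had an unadjusted p below 0.05 in edgeR's quasi-likelihood test, and none passed by DESeq2's Wald test, where 6.39% of all genes tested were called by edgeR (4.12% with a higher and 2.27% with a lower value in aged cells). For C3 the aged response minus the young one was -0.28 (95% interval -0.71 to 0.14). The intervals ran from -0.43 to 0.12 for C3ar1 and from -0.60 to 0.18 for C5ar1. They ran from -0.42 to 0.50 for C1qb and from -0.39 to 0.45 for C1qc. Wider intervals were obtained for C1qa (-0.65 to 1.04), Cfp (-0.81 to 0.79) and Itgam (-0.73 to 1.04). These intervals do not show that the responses were equal. Within batches the C3 difference was negative in 4 of 5, from -0.84 in batch 1 to -0.11 in batch 4, and 0.67 in batch 3. For C3ar1 it was negative in 5 of 5 batches, from -0.29 to -0.01.

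Levels of different genes were compared per kilobase of exon. In young untreated cells C1qb was the most abundant member with 184 CPM per kilobase, followed by C1qc with 103, C3ar1 with 33.0 and Itgam with 29.6. C1qa had 14.6 on that scale, C5ar1 8.03, C3 6.95, Cfp 6.50 and Cfb 0.0889. The ratio of the B chain to the A chain of C1q on that scale averaged 13.2 ± 3.49 (SD, n = 5). In young LPS-treated cells C3 had moved up to 87.9 CPM per kilobase, below C1qb at 147 and above C1qc at 65.6 and C3ar1 at 65.5. In aged LPS-treated cells C1qb (68.0), C3ar1 (48.9), C3 (41.4) and C1qc (36.6) led. The position of C1qc after LPS depends on the length used. With its longest transcript in place of all exon bases C1qc stood at 105.3 CPM per kilobase in young LPS-treated cells, above C3, and at 58.8 in aged LPS-treated cells, above C3ar1 and C3. In young untreated cells it was then at 164.8 and still second to C1qb.

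Members differed in the order of their mean levels across the 4 groups. C3, Cfb, C3ar1 and C5ar1 followed the order young LPS, aged LPS, young untreated, aged untreated. For C3 and Cfb no neighbours in that order overlapped, whereas for both anaphylatoxin receptors the 2 LPS-treated groups overlapped each other, as did the 2 untreated ones. Of the untreated Cfb libraries, all aged and most young ones were at or below the floor. C1qb, C1qc and Itgam followed the order young untreated, young LPS, aged untreated, aged LPS. In C1qb the 2 young groups overlapped each other but not the aged groups, while in C1qc the young LPS-treated cultures overlapped the aged untreated ones. C1qa followed the order young untreated, aged untreated, young LPS, aged LPS, and Cfp the order young LPS, young untreated, aged LPS, aged untreated. All neighbouring groups overlapped for Itgam, Cfp and C1qa.

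Similarity of profile was measured as the root mean square difference of log2 CPM over the 20 libraries after centring each gene on its own mean, as a description only. Of all pairs of members C1qb and C1qc were closest, at 0.24, followed by Cfp and Itgam at 0.36 and by C3ar1 and C5ar1 at 0.43. Among the other genes tested, C3 was most like Irgm2 (0.24), Helz2 (0.26) and Parp9 (0.28). Cfb was, after the overlapping Gm20547, most like Ifi205 and Il6 (both 0.37). The closest genes to C3ar1 were B2m (0.10), Shisa5 and Fam129b (both 0.11), and those to C5ar1 were Hcls1 (0.17), Riok3 (0.18) and Ppard (0.19). For C1qb they were Fxyd2 (0.22), Ctsf and Apoe (both 0.27), and for C1qc Gatm (0.20), Ctsh (0.22) and Itm2c (0.23). C1qa had no close neighbour, with Gm10521 (0.38), Ltc4s (0.40) and Reps2 (0.41) nearest. Gsn (0.24), Qpct (0.27) and Gstm2 (0.31) were nearest to Cfp. Apart from the overlapping Gm49368, Itgam was nearest to Pf4 (0.22) and Mfge8 (0.24).

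The wider pathway was represented by 41 other complement genes, of which 13 were tested. Counts were 0 in all 20 libraries for 16 of them. These include C6, C7, C8a and C8b of the terminal complex, Cfd (factor D, the protease that activates factor B), Cfi (factor I) and the membrane inhibitors Cd55 and Cd55b. Another 6 untested genes never exceeded 3 counts in a library, among them the C1 protease gene C1s1, with 14 counts over all libraries. The remaining 6 exceeded the floor in some library without reaching the abundance needed for a test.

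**Figure D5:**
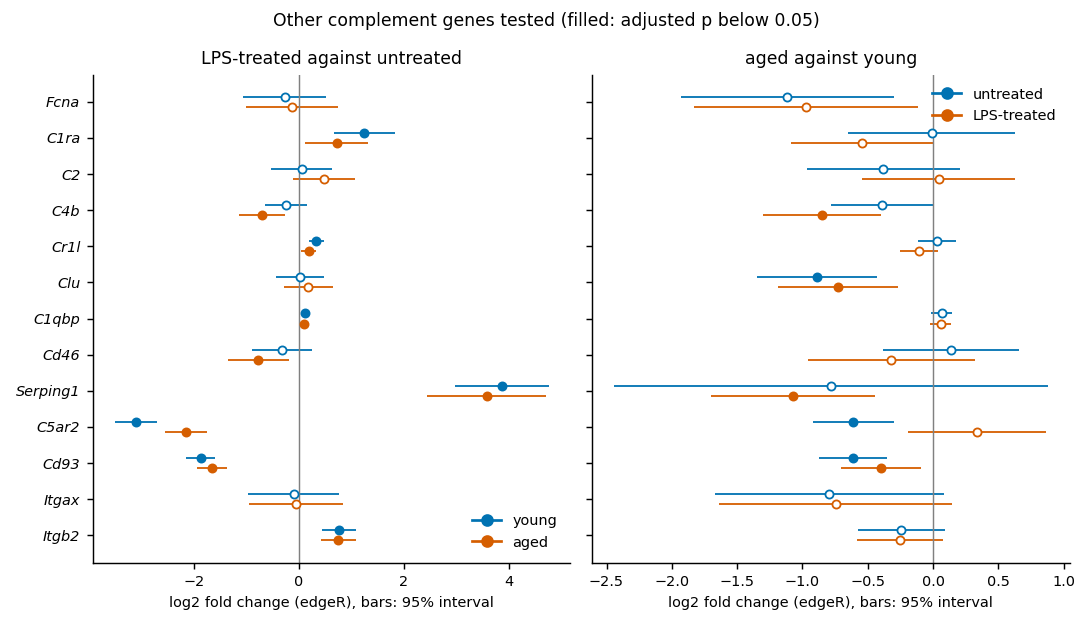
Log2 fold changes by edgeR with 95% intervals of the 13 other complement genes tested, with LPS (left) and with age (right), on separate linear axes. Filled circles passed an adjusted p of 0.05. C5ar2 and Cd93 fell with LPS in both ages, Serping1 rose, and all filled circles in the right panel lay below 0.

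Beside C1q, 4 genes of the classical and lectin pathways were tested, C1ra, C2, C4b and Fcna. C1ra (a C1r protease) rose with LPS from 1.04 ± 0.339 to 2.47 ± 0.862 CPM in young cells (SD, n = 5, log2 fold change 1.25 (SE 0.28, adjusted p = 4.71e-04)). In aged cells it rose by 0.72 (adjusted p = 0.0411), a call lost in the fit by DESeq2 (0.0537) and without batch 1, 2, 3 or 5 (0.0546, 0.125, 0.268 and 0.0686). C4b, a substrate of the C1s protease, fell with LPS in aged cells alone by the threshold (log2 fold change -0.70 (SE 0.21, adjusted p = 0.00804), against -0.24 in young cells), and the difference between the responses had an adjusted p of 0.421. Under LPS C4b was lower in aged than in young cells, without overlap (log2 fold change -0.85 (SE 0.22, adjusted p = 0.00495)). C4a and C4b are near-identical copies between which reads can be split. Fcna (ficolin A) stood at 19.1, 20.4, 21.4, 7.25 and 9.32 CPM in young and 2.72, 7.60, 13.5, 5.99 and 5.73 CPM in aged untreated cultures. Its log2 fold change of -1.12 (SE 0.39, adjusted p = 0.0686) passed with the batch as a block (0.00646), as did that under LPS, -0.97 (SE 0.41, adjusted p = 0.0839) (0.0133 with the block).

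Regulators moved in both directions. Serping1 (the C1 inhibitor) was at or below the floor in all untreated libraries and rose at least 7.42-fold in young and at least 3.73-fold in aged cells. Under LPS its level of 0.694 ± 0.402 CPM in aged cells was below 1.45 ± 0.231 CPM in young cells (SD, n = 5, log2 fold change -1.07 (SE 0.30, adjusted p = 0.00973), adjusted p = 0.0613 without batch 2). Clu was lower with age without LPS (log2 fold change -0.89 (SE 0.22, adjusted p = 0.0114)) and with it (-0.73 (SE 0.22, adjusted p = 0.0162)). Both calls were lost without batch 1 (0.0680 and 0.0943) and without batch 2 (0.118 and 0.112). Cr1l (Crry), the main membrane regulator of C3 convertases in rodents, rose by 0.33 in young (adjusted p = 2.77e-04) and 0.19 in aged cells (adjusted p = 0.0283), and C1qbp, a mitochondrial protein that binds C1q, by 0.11 and 0.10. With library size alone as the scaling, Cr1l passed in neither age and the direction of C1qbp was reversed in both. In aged cells each passed in 7 of 13 alternatives (adjusted p of 0.0228 to 0.766 for Cr1l and of 0.0105 to 0.256 for C1qbp), and both calls were lost without batch 1, 4 or 5. In young cells C1qbp also fell short without batch 2 (0.109) and without a filter on low counts (0.215). Cd46 fell in aged cells (log2 fold change -0.78 (SE 0.28, adjusted p = 0.0222)) from 277 counts over all libraries, a call lost without batch 2, 4 or 5 (0.0587, 0.0710 and 0.0633) and by DESeq2 with the batch as a block (0.0632).

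Among the other receptors, C5ar2, the second C5a receptor, went the opposite way from C5ar1. It stood at 9.66, 10.0, 11.0, 8.31 and 7.06 CPM in young and 4.72, 5.92, 8.39, 6.26 and 4.79 CPM in aged untreated cultures. LPS brought it down to 0.692, 0.995, 1.31, 1.19 and 1.03 CPM in young and 1.33, 1.07, 1.45, 1.70 and 1.16 CPM in aged cultures. The fall was 8.62-fold in young (log2 fold change -3.11 (SE 0.20, adjusted p = 3.50e-12)) and 4.47-fold in aged cells (-2.16 (SE 0.19, adjusted p = 2.27e-09)). The aged response minus the young one was 0.95 (SE 0.29, adjusted p = 0.0583), which passed with the batch as a block (0.0134), by DESeq2's Wald test (0.0447) and without batch 3 (0.0341), and was positive in 5 of 5 batches (0.0134 to 0.221 over its alternatives). Untreated aged cells held 1.53-fold less C5ar2 than young cells (log2 fold change -0.61 (SE 0.15, adjusted p = 0.0101)), a call lost without batch 1 (0.0523) or batch 2 (0.0913). Cd93, once described as a C1q receptor, changed with LPS by -1.88 in young and -1.66 in aged cells on the log2 scale (adjusted p = 3.63e-11 and 8.18e-10). With age its log2 fold change was -0.61 (SE 0.12, adjusted p = 0.00260) untreated and -0.40 (SE 0.15, adjusted p = 0.0451) under LPS. The call under LPS passed in 7 of 13 alternatives (0.00272 to 0.222) and was lost without batch 1, 2, 4 or 5. Itgb2, the beta chain that pairs with Itgam, rose with LPS by 0.76 in young (adjusted p = 2.28e-04) and by 0.75 in aged cells (adjusted p = 3.93e-04), whereas Itgam and Itgax did not pass the threshold. In all, LPS moved 7 of the 13 other genes tested in young cells (5 higher and 2 lower) and 9 in aged cells (5 higher and 4 lower), beside 64.6% and 54.4% of all genes tested. With age 3 were lower untreated (Clu, C5ar2 and Cd93) and 4 after LPS (C4b, Serping1, Clu and Cd93), and none was higher, beside 11.5% and 29% of all genes tested. The 7 of 13 in young cells are thus a smaller share than that of all genes called in either direction. The 4 of 13 between ages under LPS are close to that share, but all 4 were lower. Of all genes tested, 15% were called lower between ages under LPS and 7.81% untreated. Without batch 2 the counts with age were 1 untreated and 1 under LPS, and without batch 1 they were 1 and 2. Without batch 5, LPS moved 5 genes in aged cells.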

How the data were processed

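RNA-seq counts of 20 BV-2 cultures in 4 groups of 5 were analysed. The authors prepared stranded poly(A) libraries, sequenced paired ends, aligned the reads to GRCm38 with STAR 2.6.1d and counted them per gene with featureCounts 1.5.1, and deposited whole-number counts without normalization. Strand and overlap settings are not given in the sources used here. Symbols, positions and exon lengths came from GENCODE M21 (GRCm38), in which 55227 of 55487 identifiers were found, and promoter windows from RefSeq.

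Counts were scaled by TMM and filtered with filterByExpr, which kept 12799 genes. Genes were tested by the quasi-likelihood method of edgeR 4.0.16 (R 4.3.3), in one fit of all libraries by group without covariates, with Benjamini-Hochberg adjustment over all genes tested and a threshold of 0.05. Standard errors and 95% intervals derive from its F statistic. A prior count of 2 entered each log2 CPM. A count of 3 was taken as the detection floor, and a group wholly at or below it gives a bound per group. Floors cover counting error only. Ratios were compared by exact two-sided permutation tests, chosen after seeing the data (scipy 1.17.1). Groups followed the labels.

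Every member was described. Other complement genes were named where called in at least 1 comparison or where their reads, depth or detection bear on a value given, and the 3 genes most like each member by the stated distance. Members and lists were chosen with earlier results of these data known and 1 gene was left out of the list of other complement genes and is not reported here.

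Replicate numbers are batch numbers in the labels, which pairs the cultures. Deviations from the group means correlated between same-numbered cultures of 2 groups with a mean r of 0.146 across genes (30 pairs), and with -0.0358 between differently numbered ones. Between untreated and LPS-treated cultures of the same age, same-numbered r ran from 0.122 to 0.394. Between young and aged cultures, batch 1 had an r of -0.084 untreated and -0.214 under LPS. Batch 2 had 0.039 and -0.008. By this measure the number did not pair young with aged cultures in batch 1. In neither of these 2 batches was the same-numbered aged culture the one most like the young culture, with or without LPS. No 2 replicates agreed within sampling noise (chi-square per degree of freedom 2.42 to 26.9). Alternatives were DESeq2 1.42.0, the replicate block, other scalings and filters, only the groups compared and each batch left out.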

Additional observations from a re-analysis of the deposited data

Results flagged for a closer look

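Single libraries that stood apart from the other 4 of their group, by Dixon's test at a critical value of 0.71, were looked for in 88 groups of values of the members and the other complement genes tested. It marked 10, where chance marks about 1 in 20, and 4 of them among the 36 groups of the members. No cause was tested for any of them.

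Both aged LPS-treated values of this kind among the members came from batch 3, with C3ar1 at 272 CPM and Cfb at 17.4 CPM, each the highest of its group. Clu, the gene of clusterin, was also highest in the aged cultures of batch 3, at 91.0 CPM with and 79.3 CPM without LPS. In young cells batch 1 stood apart for C1qa under LPS, at 9.98 CPM, and for Cfb without LPS, at 0.552 CPM, which is 8 counts.

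Aged untreated cultures of batch 4 held the highest C1ra and C4b, at 1.48 and 3.90 CPM. Serping1 in the young untreated culture of batch 4, at 0.198 CPM, is 3 counts and so no more than the floor. C1qbp in the aged LPS-treated culture of batch 2 stood apart at 524.1 CPM.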

How the results depend on the processing

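No member that passed the threshold changed direction under any alternative run. Of 570 values of the members, 548 stayed on their side of the threshold, 6 lost a call and 16 gained one. In 11 the sign was opposite with neither value past the threshold, 9 of them in the difference of responses and the other two for Cfp with LPS under library size alone. The fit with the replicate block changed no other call of a member than those given for C3ar1 and C1qb. DESeq2 with the block also called Cfb (0.0389) and C1qa under LPS (0.0338) between ages. Requiring 10 counts in every library removed Cfb from the test. The comparison of responses needs all groups, so it was not run on the groups compared alone.

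Over all genes, DESeq2 with the replicate block called 2221 genes between aged and young untreated cells (1475 in edgeR) and 1364 for the difference of responses (818 in edgeR). With library size alone the median of all genes shifted by -0.22 with LPS in young and by -0.16 in aged cells. The share of called genes that were higher then went from 48.2% to 27.3% in young cells with LPS, from 50.6% to 28.4% in aged cells, from 48.3% to 70.1% between ages under LPS, from 32.2% to 42.2% untreated and from 64.4% to 81.3% for the difference of responses. C1qbp with LPS went to -0.11 in young and -0.057 in aged cells under that scaling.

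Leaving out 1 batch at a time gave 548 to 1193 genes between ages untreated, 2156 to 3563 under LPS and 189 to 697 for the difference of responses, in each case fewest without batch 2. Other complement genes called ranged from 1 to 4 between ages untreated, 1 to 4 under LPS, 5 to 7 with LPS in aged cells (9 with all libraries) and 0 to 1 for the difference of responses. That 1, C5ar2, was also called by DESeq2, by both fits with the block and with library size alone.

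The level per kilobase of C3ar1 in young LPS-treated cells was 59.6 with library size alone. With the longest transcript, C1qc was at 164.8, 90.3, 105.3 and 58.8 CPM per kilobase in young untreated, aged untreated, young LPS-treated and aged LPS-treated cells. Depth limits Cfb and Serping1 without LPS, Cfb in aged cells under LPS (59 to 252 counts) and C1qa in aged cells under LPS (25 to 93 counts).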
